A study of Mus musculus with 7 samples.

Results

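The SR genes encode serine- and arginine-rich splicing factors. Their expression was compared between brown fat of Gyk knockout mice and brown fat of wild-type mice. Of 10 SR genes listed for study (Srsf1 to Srsf7, Srsf9, Srsf10 and Srsf11), 9 were measured, by 32 of the 45037 probe sets of the array. The array's annotation used here pairs 0 probe sets with Srsf7, which was therefore not analysed here. The genes and the comparison were chosen with earlier results of these arrays known, so the differences between knockout and wild type are given for the SR genes as a description, with no test.

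Total RNA came from brown fat of C57BL/6J mice aged 3 days, all labelled male. The knockout group (KO, 4 samples, replicates 1 to 4) is described as lacking Gyk, the gene of glycerol kinase, which makes glycerol 3-phosphate from glycerol. The wild-type group (3 samples, replicates 1, 3 and 4) was the control. The labels give the same strain, sex, age and tissue for all 7 samples, each hybridised to 1 array that reports 1 signal per probe set. The labels do not say whether each sample was 1 animal, so the spread between arrays may be technical. The knockout itself could not be checked, since 0 probe sets are paired with Gyk in the annotation used here.

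The arrays had median signals between 131.5 and 154, and their number limits the precision of every value. The array labelled KO replicate 2 stood apart. It correlated best with wild-type replicate 1 (0.975), and Xist, which silences an X chromosome in female cells, read 2757 on it and 273 or less elsewhere, although every sample was labelled male. Results are therefore given with and without it. Brown fat markers were present, with Ucp1, the uncoupling protein, at 31505 ± 4635 in KO (SD, n = 4) and 30978 ± 2388 in wild type (n = 3). The dividing-cell markers (14 of 15 measured) summed to 6815 to 9202 signal units on the KO arrays and 9633 to 12648 on the wild-type arrays. The endothelial markers (6 of 6 measured) summed to 7478 to 8283 in KO and 8408 to 10602 in wild type. The sums of the leukocyte, erythroid, skeletal muscle and fibroblast markers overlapped between the genotypes.

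SR proteins bind short exonic sequences of the pre-mRNA through an RNA recognition motif. Through a tail of arginine-serine repeats they recruit the U1 particle and the U2AF factor to the neighbouring splice sites. Kinases of the SRPK and CLK families phosphorylate that tail and so control where in the nucleus the proteins act. Several SR genes also limit their own expression by splicing in a poison exon that marks their transcript for nonsense-mediated decay, and probe sets of the same SR gene can therefore read different transcripts.

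Srsf3, the smallest SR protein and an adaptor for mRNA export, was lower in KO brown fat on 5 of its 6 probe sets, while the sixth, 1438215_at, lay close to wild type. Srsf1, the founding member of the family, was lower in KO on all 6 of its tested probe sets, by less and with overlap of the arrays on 3 of them. Srsf2 was lower on average on all 4 of its probe sets, without overlap of the arrays on 2 of them. Srsf10 was lower on 2 of its 4 probe sets. With all arrays, Srsf4, Srsf5, Srsf6, Srsf9 and Srsf11 differed by at most 0.19 on the log2 scale on any probe set, and without KO replicate 2 by at most 0.31 (Srsf11). In these whole-tissue samples, fewer cells of a type and less RNA per cell cannot be told apart.

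Of the 32 SR probe sets, 31 were bright enough to enter the fit of KO against wild type. The seventh Srsf1 probe set, 1457136_at, was too dim, with 12.1 to 60.6 signal units in KO and 9.3 to 61 in wild type. In the fit over all 27022 probe sets (limma, Benjamini-Hochberg adjusted p under 0.05), 6 SR probe sets were called lower in KO, 5 of Srsf3 and 1 of Srsf1. Among all tested probe sets 0.644% were called lower, and 1.59% in either direction. Higher calls numbered 0 SR probe sets, against 0.951% of all tested. At an unadjusted p under 0.05 there were 13 SR probe sets, where 16.5% of all tested probe sets were. The KO arrays lay wholly below the wild-type arrays on 12 SR probe sets (7.25% of all tested) and wholly above them on 0 (7.48%). The median log2 difference was -0.19 over the 31 SR probe sets and 0.00 over all tested. Since the genes were chosen with this contrast known, these counts are not evidence about the family.

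Without the array labelled KO replicate 2, 8 SR probe sets of 3 genes were called lower, where 4.21% of all tested probe sets were (7.35% in either direction). The KO arrays then lay wholly below wild type on 14 SR probe sets (14.1% of all tested) and wholly above on 0 (13%). Without any other single array (KO replicate 1, 3 or 4, or wild-type replicate 1, 3 or 4), 0 SR probe sets were called. In those fits only 7 to 40 of all 27022 tested probe sets were called, against 431 with all arrays. Of the SR probe sets, 10 to 14 then had an unadjusted p under 0.05. The 6 calls thus depended on all of these arrays, as did most calls over all tested probe sets. The Srsf1 call and 2 of the Srsf3 calls lay just under the threshold.

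**Figure D1:**
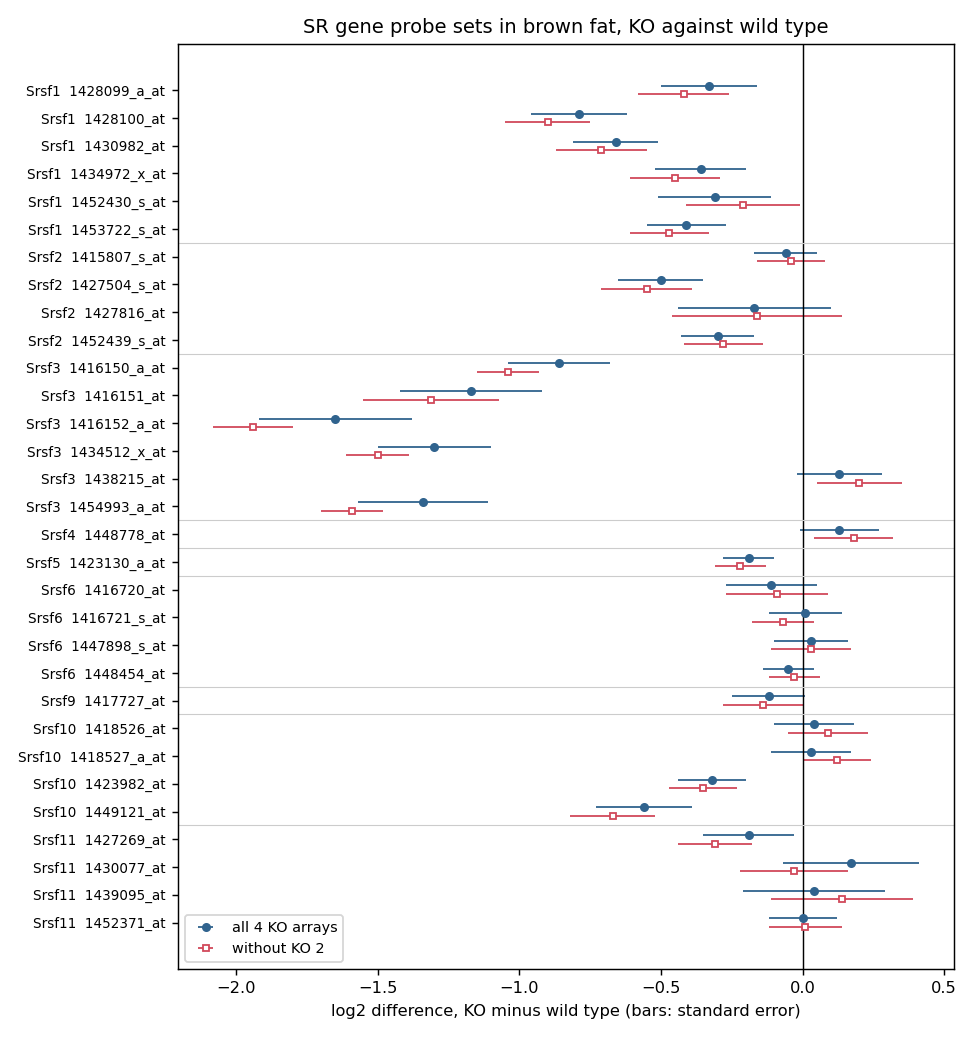
Log2 difference between KO and wild type, with its standard error, for the 31 tested SR probe sets grouped by gene, from all 4 KO arrays (filled circles) and without KO replicate 2 (open squares). Of the Srsf3 probe sets, 5 lie between -1.65 and -0.86, and 1438215_at lies at 0.13.

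The brightest Srsf3 probe set, 1416150_a_at, read 1363, 2260, 1306 and 1359 on the arrays of KO replicates 1 to 4. It read 2862, 2530 and 3033 on the arrays of wild-type replicates 1, 3 and 4. All KO arrays lay below all wild-type arrays, and KO replicate 2 lay highest among the KO arrays. The means were 1572 ± 459 in KO (SD, n = 4) and 2808 ± 255 in wild type (n = 3), a log2 difference of -0.86 ± 0.18 (SE) and a 1.81-fold lower level. Without KO replicate 2 the difference was -1.04 ± 0.11.

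The largest difference of any SR probe set was that of 1416152_a_at, also of Srsf3. It read 246, 579, 208 and 275 in KO and 1017, 967 and 1067 in wild type. KO replicate 2, at 579, stood between the other KO arrays and the wild-type arrays, and the genotypes did not overlap. The log2 difference was -1.65 ± 0.27, or 3.14-fold lower, and -1.94 ± 0.14 without KO replicate 2.

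Srsf3 probe set 1434512_x_at read 472, 890, 491 and 509 in KO and 1389, 1517 and 1433 in wild type, which was 2.46-fold lower in KO. Srsf3 probe set 1454993_a_at read 504, 1007, 472 and 473 in KO and 1515, 1598 and 1448 in wild type, 2.53-fold lower. These 2 probe sets are annotated to the same transcript record, and their readings on each array were close to one another. The dimmest Srsf3 probe set, 1416151_at, read 57.5, 129, 101 and 78.9 in KO and 212, 209 and 305 in wild type. It was 2.25-fold lower (log2 difference -1.17 ± 0.25), and it shares a record with 1416150_a_at and 1416152_a_at. The 5 probe sets with lower signal thus rest on 2 transcript records and are not 5 independent readings of the gene.

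The sixth Srsf3 probe set, 1438215_at, is annotated to another record. It read 603, 458, 540 and 525 in KO and 399, 491 and 562 in wild type. The arrays of the genotypes overlapped, and the log2 difference was 0.13 ± 0.15, or 0.20 ± 0.15 without KO replicate 2. Its difference stayed between 0.01 and 0.24 when any 1 array was left out, while the median difference of the other 5 probe sets stayed between -1.50 and -1.21.

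**Figure D2:**
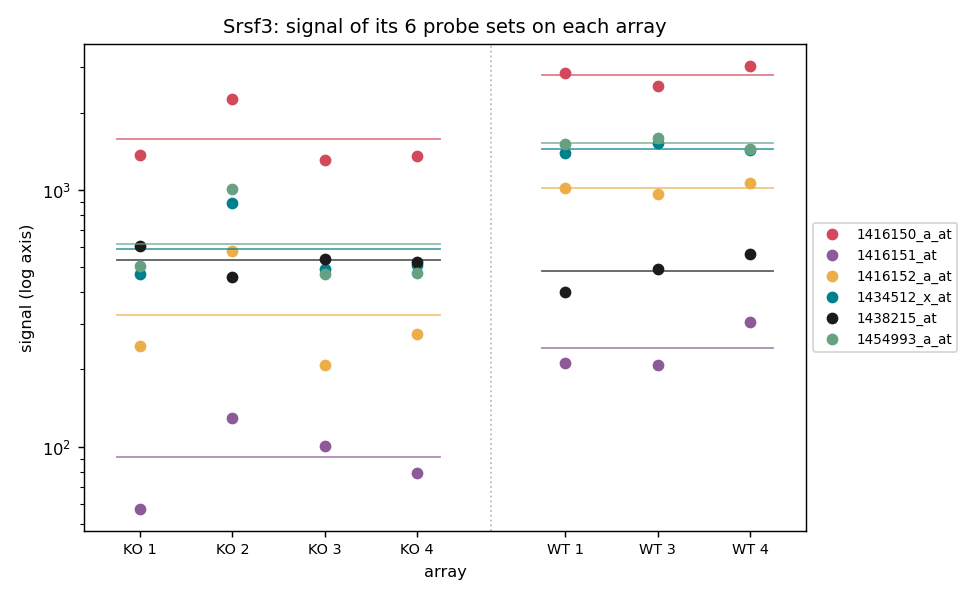
Signal (log axis) of the 6 Srsf3 probe sets on the 4 KO arrays (left) and the 3 wild-type arrays (right), with a line at each group's mean. The means of 5 probe sets are lower in KO, and those of 1438215_at (black) are 532 in KO and 484 in wild type.

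The ratio of 2 probe sets within an array does not depend on a scaling factor of that array, and ratios are given here of the signals without an offset. The log2 ratio of 1416152_a_at to 1438215_at was -1.29, 0.34, -1.38 and -0.93 on the KO arrays and 1.35, 0.98 and 0.93 on the wild-type arrays. Probe set 1438215_at was taken as the denominator because its difference was the highest of the Srsf3 probe sets. Lower average ratios in KO therefore follow from that choice, and all 5 ratios share this denominator. For each of the 5 probe sets the ratio to 1438215_at was lower on every KO array than on every wild-type array, with average log2 differences between -1.90 and -1.01. KO replicate 2 was the KO array nearest to wild type in all of these ratios. The ratios restate the unequal differences of the probe sets given above and do not show which transcript each probe set reads.

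**Figure D3:**
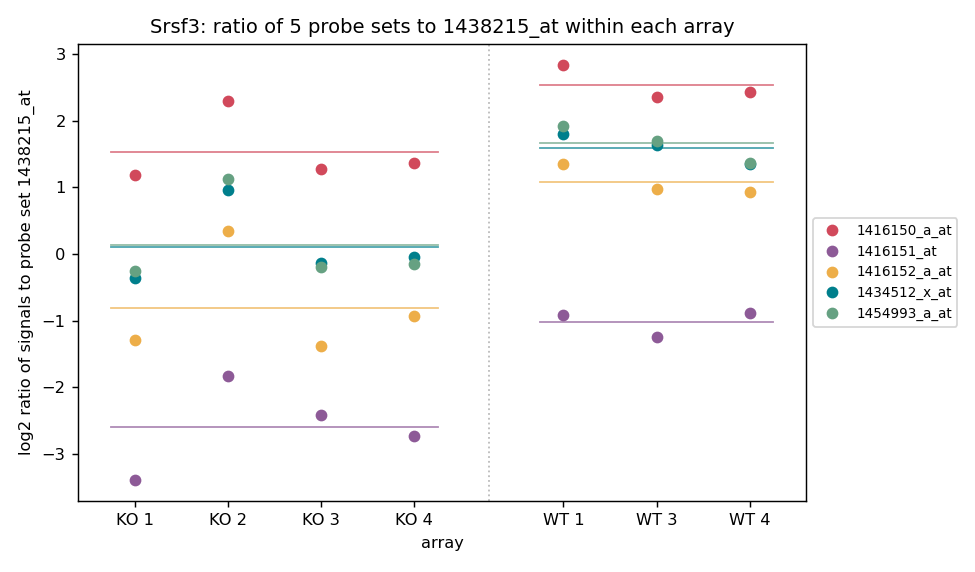
Log2 ratio of 5 Srsf3 probe sets to 1438215_at within each array, KO arrays left and wild-type arrays right, with a line at each group's mean. For 1416150_a_at the ratio was 1.18 to 2.30 in KO and 2.36 to 2.84 in wild type.

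The lower Srsf3 signals ran beside lower sums of 2 marker lists. The dividing-cell sum was 6815, 9202, 7484 and 8422 in KO and 11548, 9633 and 12648 in wild type. The endothelial sum was 7478, 8283, 8250 and 8097 in KO and 8408, 10193 and 10602 in wild type. KO replicate 2 had the highest of the KO sums in both lists, but its endothelial sum was close to those of KO replicates 3 and 4. On each of the 5 lower Srsf3 probe sets KO replicate 2 had the highest KO signal. Of the 13 dividing-cell genes tested, 4 fell (Mcm2, Mcm3, Mcm5 and Rrm2) and 0 rose, with a median log2 difference of -0.91 over their 25 probe sets, of which 4 were called lower (0.644% of all tested). Without KO replicate 2, 14 of the 25 were called lower, of 8 genes (4.21% of all tested), with a median of -1.18. Of the 6 endothelial genes tested 0 passed by limma, with 3 of 7 probe sets at an unadjusted p under 0.05 and a median of -0.30. The fibroblast sums overlapped, at 27866, 44509, 39864 and 43102 in KO and 48427, 42752 and 44510 in wild type. Of 11 fibroblast probe sets 4 had an unadjusted p under 0.05 (16.5% of all tested), with a median of -0.16. By limma 0 of them were called. Without KO replicate 2, 3 were called lower (4.21% of all tested), with a median of -0.30. Mcm7, a subunit of the replication helicase, read 2440 ± 195 in KO and 2240 ± 324 in wild type, and Cdk1, the mitotic kinase, read 615 ± 141 in KO and 612 ± 167 in wild type. The part of dividing, endothelial or fibroblast cells in the Srsf3 difference was not tested.

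Gaps in the samples' deposit numbers split the arrays into 2 blocks, the first with KO replicates 1 and 2 and wild-type replicate 1. The labels name no block or batch, so what the blocks stand for is not known. Within the second block (KO replicates 3 and 4 against wild-type replicates 3 and 4) the 5 Srsf3 differences were -1.95 to -1.04, and that of 1438215_at was 0.02. With the block as a covariate they were -1.71 to -0.90 and 0.16. The first block holds 1 wild-type array and so gives no spread within wild type.

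The genes whose centred log2 profile over the 7 arrays lay nearest to that of the brightest Srsf3 probe set, by root mean square distance, were Ndn (0.0619), Hmgb3 (0.0629), Tmsb10 (0.068), Ube2d3 (0.0725), Ptp4a3 (0.0726) and Plk4 (0.0743). This Srsf3 search was chosen after the values were seen. Ndn, an imprinted growth suppressor gene, read 2853, 4856, 3117 and 2845 in KO and 6245, 5482 and 6302 in wild type. Hmgb3, a chromatin protein of progenitor cells, read 1732, 2899, 1906 and 1838 in KO and 3738, 3230 and 4016 in wild type. The search picked genes for likeness to this Srsf3 profile over all 7 arrays. The lower KO signals of both genes and their intermediate reading of KO replicate 2 follow from that choice.

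The promoters of Srsf3, of Srsf1 and of Srsf6 are shown because the first 2 genes had the called probe sets and Srsf6, with 4 probe sets, had a range of log2 differences of only -0.11 to 0.03. Each window is the 250 bases before the RefSeq start (build GRCm38.p6), given 5′ to 3′ on the strand of the gene, which is the plus strand for these genes. The Srsf3 window is chr17:29032410-29032659, the Srsf1 window chr11:88047123-88047372 and the Srsf6 window chr2:162931258-162931507. Capitals mark matches, on either strand, to 3 motifs. The TATA box was searched as TATAAA. The NF-Y site was searched as CCAAT. The GC box was searched as GGGCGG.
Srsf3: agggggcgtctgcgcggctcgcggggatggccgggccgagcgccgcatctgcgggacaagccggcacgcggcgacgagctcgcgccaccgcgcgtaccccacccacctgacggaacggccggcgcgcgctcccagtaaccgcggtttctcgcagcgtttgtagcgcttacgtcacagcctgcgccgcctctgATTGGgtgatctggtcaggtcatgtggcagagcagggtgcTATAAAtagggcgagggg
Srsf1: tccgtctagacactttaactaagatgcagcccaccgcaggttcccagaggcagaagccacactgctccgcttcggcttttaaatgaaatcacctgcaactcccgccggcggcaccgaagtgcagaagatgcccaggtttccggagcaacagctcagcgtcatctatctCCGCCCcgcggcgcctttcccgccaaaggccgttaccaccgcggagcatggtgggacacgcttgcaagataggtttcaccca
Srsf6: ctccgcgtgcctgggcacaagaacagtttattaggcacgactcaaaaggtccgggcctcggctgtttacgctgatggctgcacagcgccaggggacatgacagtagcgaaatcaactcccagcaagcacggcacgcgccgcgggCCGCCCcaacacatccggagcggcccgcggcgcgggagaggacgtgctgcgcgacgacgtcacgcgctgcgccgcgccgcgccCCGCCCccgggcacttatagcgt

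The Srsf3 window held 1 TATA box match, beginning 18 bases before the start, and 1 NF-Y site on the opposite strand. It held 0 GC box matches. The Srsf1 window held 1 GC box match and the Srsf6 window 2, with 0 TATA box and NF-Y matches in each. In the same 250 bases of all 32851 promoters in the table, the TATA box letters were found in 12.4%, those of the NF-Y site in 33.8% and those of the GC box in 32.7%. Over the 10 SR genes, 2 had a TATA box match (Srsf2 and Srsf3), 3 an NF-Y match (Srsf2, Srsf3 and Srsf10) and 9 a GC box match, all but Srsf3. The SR windows held 56.8% to 78.0% G and C, against a median of 52.4% over all promoters, and the shares were not adjusted for this. Srsf4 had 3 windows and Srsf11 had 2, and a match in any window counted for the gene. An E-box (CACGTG, 6.02% of all promoters), an E2F site (TTTGGCGC or TTTCGCGC, 0.654%) and a cyclic AMP response element (TGACGTCA, 1.55%) were found in 0 of the 10. No match overlapped another in the printed windows. A match describes the letters of the window, and no match says nothing of the factor.

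Srsf1 regulates the choice between competing splice sites and also acts in mRNA surveillance and translation. Its probe set with the largest difference, 1428100_at, read 407, 521, 404 and 312 in KO and 682, 671 and 819 in wild type. The genotypes did not overlap, and KO replicate 2 was again the highest KO array. The log2 difference was -0.79 ± 0.17, or 1.73-fold lower, and -0.90 ± 0.15 without KO replicate 2. This was the called Srsf1 probe set.

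Probe set 1430982_at of Srsf1 read 1191, 1296, 1374 and 866 in KO and 1878, 1762 and 1928 in wild type. The genotypes did not overlap, and its difference of -0.66 ± 0.15 passed the threshold only without KO replicate 2 among the fits that left out 1 array. The brightest Srsf1 probe set, 1434972_x_at, read 2438, 3175, 3045 and 2051 in KO and 3399, 2926 and 3965 in wild type, with overlap between the genotypes. Its log2 difference was -0.36 ± 0.16, and those of 1428099_a_at, 1452430_s_at and 1453722_s_at were -0.33, -0.31 and -0.41. On 5 of the 6 probe sets KO replicate 4 had the lowest signal of the 4 KO arrays.

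Within the arrays, the log2 ratio of 1428100_at to the brightest Srsf1 probe set was -2.58, -2.61, -2.91 and -2.72 in KO and -2.32, -2.13 and -2.28 in wild type. The KO arrays lay below the wild-type arrays without overlap, with an average difference of -0.47. Since 1428100_at had the largest fall of the Srsf1 probe sets, a lower average ratio in KO follows from that choice. The ratios of the 4 remaining Srsf1 probe sets overlapped between the genotypes, with differences of -0.30 (1430982_at), -0.05, 0.03 and 0.05. The probe sets 1428100_at and 1428099_a_at are annotated to the same record and differed between the genotypes by -0.79 and -0.33. The spread of the Srsf1 differences, 0.48 on the log2 scale, was smaller than the 1.79 seen within Srsf3.

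**Figure D4:**
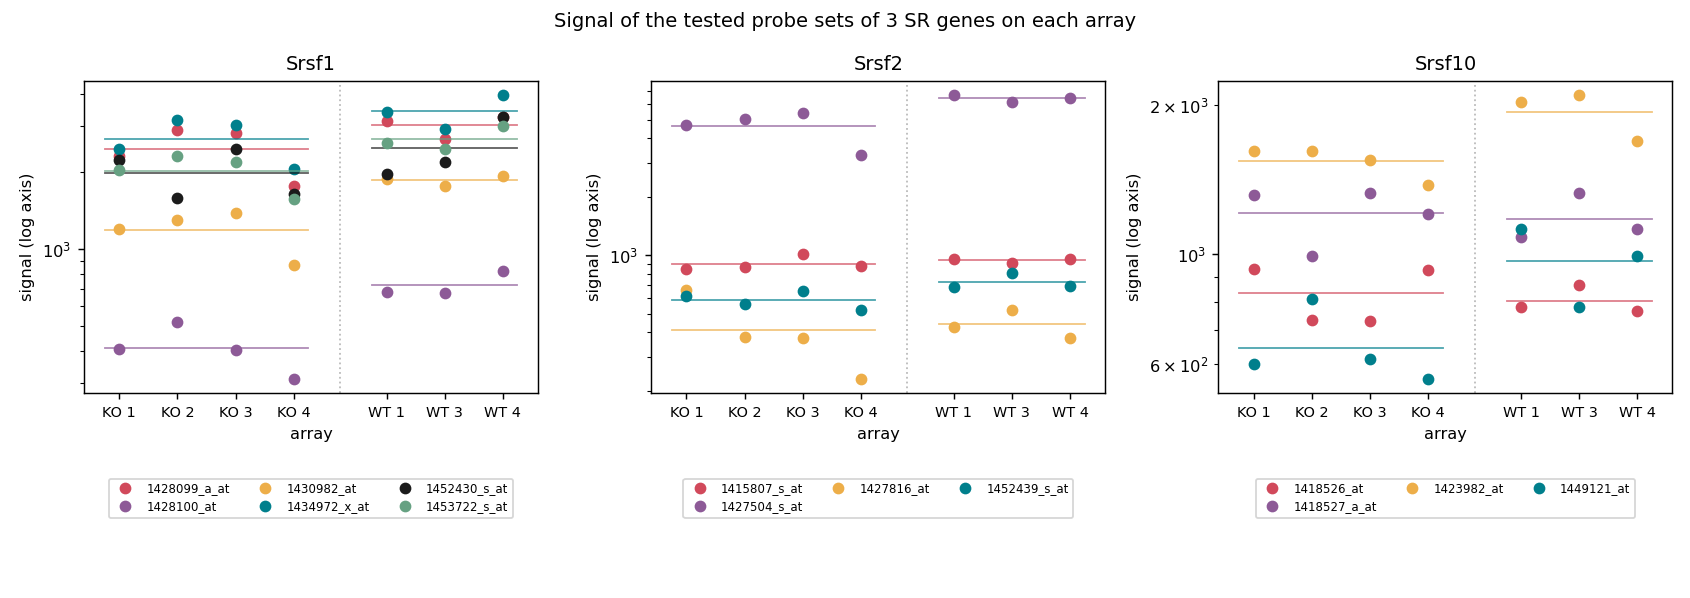
Signal (log axis) of the tested probe sets of Srsf1, Srsf2 and Srsf10 on the KO arrays (left of each panel) and the wild-type arrays (right), with a line at each group's mean. In Srsf1 the probe set 1428100_at lies between 312 and 521 in KO and between 671 and 819 in wild type.

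Srsf2 is a marker of nuclear speckles, where splicing factors are stored. Its brightest probe set, 1427504_s_at, read 4701, 5039, 5399 and 3295 in KO and 6677, 6130 and 6485 in wild type. The genotypes did not overlap and KO replicate 4 was lowest. The log2 difference of -0.50 ± 0.15 did not pass the threshold. Probe set 1452439_s_at read 522 to 658 in KO and 682 to 813 in wild type (-0.30 ± 0.13). The differences of 1415807_s_at (-0.06 ± 0.11) and 1427816_at (-0.17 ± 0.27) were small beside their errors. The log2 ratio of 1415807_s_at to the brightest probe set was -2.47, -2.54, -2.42 and -1.90 in KO and -2.81, -2.74 and -2.77 in wild type, higher on every KO array. The ratios of 1427816_at and 1452439_s_at overlapped (differences of 0.31 and 0.19). The brightest Srsf2 probe set also had the largest fall, so higher average ratios in KO follow from this denominator. The suffix s_at marks probe sets whose probes match more than 1 transcript, so 3 of the 4 Srsf2 probe sets may also read related sequences. The same holds for 1452430_s_at and 1453722_s_at of Srsf1 and for 1416721_s_at and 1447898_s_at of Srsf6.

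Srsf10 is an unusual SR protein that represses splicing when it loses its phosphates, as in mitosis or after heat shock. Its probe set with the largest difference, 1449121_at, read 598, 810, 613 and 559 in KO and 1125, 782 and 991 in wild type. KO replicate 2 lay above wild-type replicate 3, and the other KO arrays lay below all wild-type arrays. The log2 difference was -0.56 ± 0.17, which did not pass, and -0.67 ± 0.15 without KO replicate 2, which did.

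The brightest Srsf10 probe set, 1423982_at, read 1615, 1612, 1549 and 1379 in KO and 2032, 2095 and 1691 in wild type. The genotypes did not overlap (-0.32 ± 0.12). The 2 remaining probe sets, 1418526_at and 1418527_a_at, differed by 0.04 and 0.03 although they are annotated to the same record as 1449121_at. The log2 ratio of 1418526_at to 1423982_at was -1.13 to -0.57 in KO and -1.38 to -1.14 in wild type, with the groups just clear of each other. The ratios of 1418527_a_at and 1449121_at overlapped (differences of 0.36 and -0.25).

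Srsf5, first described as a growth response gene in regenerating rat liver, had 1 probe set. It read 6554, 7273, 7173 and 6725 in KO and 7779, 8086 and 7926 in wild type. The genotypes did not overlap, but the difference was small, at -0.19 ± 0.09 on the log2 scale, and did not pass. Srsf4, one of the larger SR proteins, read 2200, 1863, 1757 and 2614 in KO and 1927, 1923 and 1859 in wild type. Its KO arrays lay on either side of wild type, with a log2 difference of 0.13 ± 0.14.

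Srsf6 read 3388, 3233, 3372 and 3618 in KO and 3426, 3565 and 3603 in wild type on its brightest probe set, 1448454_at. The arrays overlapped, and the log2 difference was -0.05 ± 0.09. Probe set 1416720_at, with the largest Srsf6 difference, read 1795, 1703, 1887 and 1714 in KO and 1574, 1699 and 2646 in wild type (-0.11 ± 0.16), where wild-type replicate 4 stood high. Srsf9, a close relative of Srsf1, read 2095, 2233, 2502 and 1772 in KO and 2576, 2189 and 2205 in wild type, with overlap (-0.12 ± 0.13).

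Srsf11 is an SR-related protein that meets U2AF at the 3′ splice site. Its brightest probe set, 1452371_at, read 3060, 3567, 3660 and 4257 in KO and 3298, 3883 and 3647 in wild type. The arrays overlapped and the log2 difference was 0.00 ± 0.12. The largest Srsf11 difference was that of 1427269_at, which read 406, 586, 451 and 380 in KO and 516, 500 and 539 in wild type (-0.19 ± 0.16). Its KO replicate 2 lay above wild type, and the other KO arrays lay below it, with a difference of -0.31 ± 0.13 when that array was left out. Probe set 1430077_at read 332 on KO replicate 2 and 157 to 187 on the other KO arrays, against 161 to 208 in wild type. Its log2 difference of 0.17 ± 0.24 became -0.03 ± 0.19 without that array.

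The mean of the brightest probe sets of the 9 genes, relative to the wild-type mean, was -0.30, -0.15, -0.22 and -0.34 on the log2 scale in KO and 0.01, -0.03 and 0.01 in wild type. The 6 genes with the nearest profile, at root mean square distances of 0.0283 to 0.036, were Tpst2, Vamp4, Tiprl, Cpne8, Pomgnt1 and Ctso. Their log2 differences, close to that of the mean profile by this choice, lay between -0.28 and -0.24 and none passed.

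The other genes of the splicing machinery were read from 6 lists with 147 genes, of which 129 had 368 tested probe sets. They were drawn up by function, with earlier results of these arrays known. In all, 3 of their probe sets rose and 1 fell, where 0.951% and 0.644% of all tested probe sets did. The KO arrays lay wholly above wild type on 39 (7.48% of all tested) and wholly below on 25 (7.25%). Without any 1 array other than KO replicate 2, 0 of these probe sets passed by limma, with 53 to 60 at an unadjusted p under 0.05. In those fits 7 to 40 of all tested probe sets passed. The calls of Tra2b, Pnisr and Prpf4b given next were lost in each of those fits. By limma 0 passed also without the filter on low signal (84 at an unadjusted p under 0.05) and without the mean-variance trend (66). Without KO replicate 2, 16 rose and 20 fell, where 3.14% and 4.21% of all tested probe sets did.

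Of 27 other SR-related genes tested, 1 rose (0.951% of all tested probe sets) and 1 fell (0.644%), each on 1 of 105 probe sets. The median log2 difference was 0.07. Tra2b, a partner of SR proteins on exonic enhancers, read 1559, 2083, 1946 and 1725 in KO and 2607, 3340 and 2799 in wild type on probe set 1427432_a_at. It fell 1.59-fold without overlap (limma, adjusted p = 0.0395), on 1 of its 3 tested probe sets. The log2 differences of these 3 ranged from -0.66 to 0.35. Pnisr, an SR-rich protein that binds the splicing factor pinin, read 1082, 1092, 1180 and 1052 in KO and 620, 600 and 798 in wild type on 1435080_x_at. It rose 1.62-fold (adjusted p = 0.0338) on 1 of 7 probe sets, whose differences ranged from -0.50 to 0.73. Without KO replicate 2 another Pnisr probe set, 1437041_at, fell (-0.72, adjusted p = 0.0388).

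Among the 12 genes of SR protein kinases and nuclear import, 1 rose, on 2 of 31 probe sets (0.951% of all tested), and 0 fell (0.644%). The median log2 difference was -0.01. Prpf4b, a kinase of the spliceosome, read 937, 809, 856 and 1188 in KO and 540, 560 and 556 in wild type on 1436427_at. It rose 1.66-fold (adjusted p = 0.0389), and a second of its 6 probe sets, 1455696_a_at, rose 1.45-fold (adjusted p = 0.0476). Clk3, of the CLK family that phosphorylates SR proteins, was at 1354 ± 266 in KO and 861 ± 70 in wild type (adjusted p = 0.0784), short of the threshold. It passed without KO replicate 2 (adjusted p = 0.0299).

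The hnRNP proteins often oppose SR proteins at splice sites. By limma 0 of 27 genes passed, with 20 of 71 probe sets at an unadjusted p under 0.05 (16.5% of all tested) and a median of -0.08. On 1448144_at Hnrnpab was at 1012 ± 123 in KO and 1487 ± 80 in wild type (adjusted p = 0.0572). The log2 differences of its 6 tested probe sets ranged from -0.55 to 0.23. On 1420093_s_at Hnrnpdl was at 626 ± 114 in KO and 948 ± 62.3 in wild type (adjusted p = 0.0754). Those of its 7 tested probe sets ranged from -0.65 to 0.40. Without KO replicate 2, 12 of the 71 hnRNP probe sets fell, of 10 genes (4.21% of all tested), and 3 rose, of 3 genes (3.14%). Hnrnpdl and Hnrnpa2b1 were then among the genes with probe sets in both directions. On 1420365_a_at Hnrnpa2b1 read 3898, 4887, 2728 and 2754 in KO and 5312, 4667 and 4970 in wild type. On 1433830_at it read 2877, 2553, 2775 and 2996 in KO and 1813, 2412 and 2063 in wild type.

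**Figure D5:**
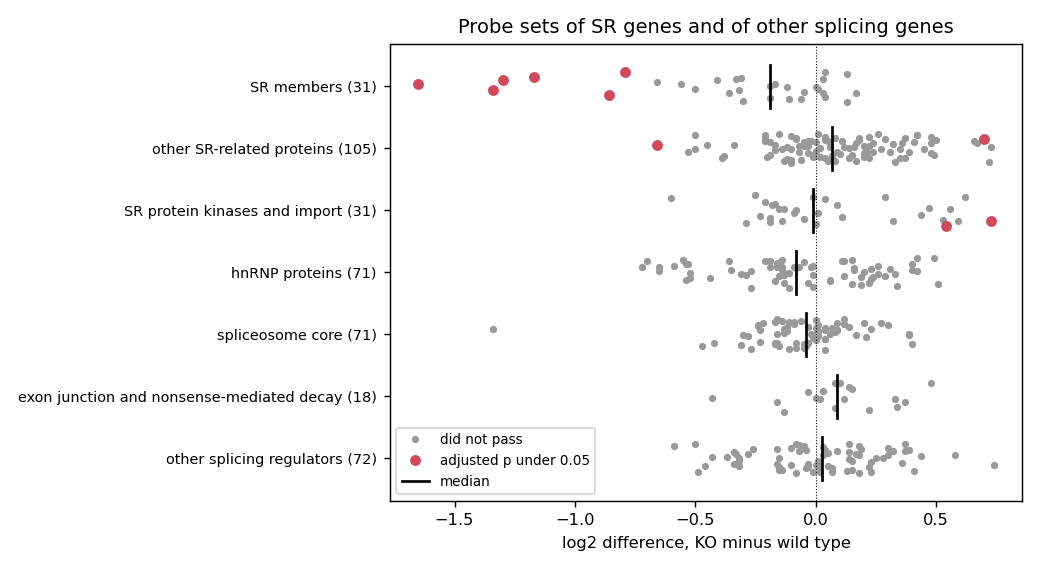
Log2 difference between KO and wild type of each tested probe set of the SR genes and of 6 lists of other splicing genes, with the number of probe sets in brackets, the median as a bar and probe sets past the threshold in red. The median of the SR probe sets is -0.19 and those of the other lists lie between -0.08 and 0.09.

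Of 31 genes of the spliceosome core tested, 0 passed by limma (4 of 71 probe sets at an unadjusted p under 0.05, against 16.5% of all tested, median -0.04). Sf3b1, which holds the branch point, read 99.5, 336, 61 and 97.3 in KO and 395, 300 and 385 in wild type on 1418561_at (adjusted p = 0.115). KO replicate 2 read as wild type did, and without it the probe set passed at 3.37-fold lower (adjusted p = 0.00191), although the other Sf3b1 probe sets did not. On 1448633_at Prpf31 was at 320 ± 40.3 in KO and 453 ± 45.1 in wild type (adjusted p = 0.149). The log2 differences of its 2 tested probe sets were -0.47 and 0.39.

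Of 10 genes of the exon junction complex and nonsense-mediated decay, 0 passed by limma (2 of 18 probe sets at an unadjusted p under 0.05, 16.5% of all tested, median 0.09). Smg1, the kinase that phosphorylates the decay factor Upf1, was at 1505 ± 232 in KO and 1063 ± 83.4 in wild type (adjusted p = 0.111) and passed without KO replicate 2 (adjusted p = 0.028). Upf2, another decay factor, was at 881 ± 39.1 in KO and 674 ± 26.6 in wild type (adjusted p = 0.13). Of 22 other splicing regulators 0 passed by limma (14 of 72 at an unadjusted p under 0.05, 16.5% of all tested, median 0.03). On 1418629_a_at Khdrbs1 was at 991 ± 95.6 in KO and 1369 ± 113 in wild type (adjusted p = 0.0911). The log2 differences of its 5 tested probe sets ranged from -0.50 to -0.04. On 1423723_s_at Tardbp was at 1137 ± 217 in KO and 1699 ± 82.4 in wild type (adjusted p = 0.0919). Those of its 5 tested probe sets ranged from -0.59 to 0.14. Without KO replicate 2, 3 probe sets of Mbnl2, a regulator of developmental splicing, rose, by 1.37-fold to 1.59-fold, while Tardbp fell on 1423723_s_at (adjusted p = 0.0397) and Khdrbs1 on 1434541_x_at (adjusted p = 0.0406).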

How the data were processed

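The deposited values are signal intensities on a linear scale, 1 per probe set and array. Total RNA was extracted with Trizol and labelled with biotin, per the labels' protocols. The submitters' processing notes name GCOS 1.2. How arrays were scaled is not stated in these sources. After trimming 2% at each end the mean was 500.0 on every array, and this scaling was kept. No detection calls were used.

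The table has 45101 rows, and 64 control probe sets among them were not used. In the probe annotation 34945 probe sets carry 1 symbol, 932 several and 9160 none. Gene identifiers gave current symbols from a RefSeq table (GRCm38.p6). The analysis used log2(signal + 30.6), where the offset is the 20th percentile over all arrays. Fold changes on this scale understate those of dim probe sets. Probe sets with a mean log2 value under the 40th percentile were left out, which left 27022. The 4 KO and 3 wild-type arrays were compared by the two-sided moderated test of limma 3.58.1 (R 4.3.3), with a trend of variance on mean signal and p-values adjusted by Benjamini-Hochberg over all tested probe sets. Log2 differences are KO minus wild type. Ratios of probe sets within an array use the signals without the offset. The fit was tested on simulated data.

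For each SR gene, values are given for the brightest probe set and the one with the largest difference. For each list of other splicing genes, the genes that passed are named, and the 2 with the smallest p where fewer than 2 passed. Hnrnpa2b1, Mbnl2, Mcm7, Cdk1 and the genes nearest to Srsf3 were named after their values were seen. The SR genes and lists were chosen with earlier results of these data known. Promoter sequences are from RefSeq (GRCm38.p6), and all 10 SR genes matched by symbol.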

Additional observations from a re-analysis of the deposited data

Results flagged for a closer look

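In 4 of the 32 SR probe sets, 1 of the 4 KO arrays lay far from the other KO arrays, by the gap to its nearest neighbour as a share of the group's range. Chance gives about 1 in 20 for a single probe set if the arrays of a group are alike, but the flagged probe sets are not independent. KO replicate 2 also differed from the other KO arrays over all tested probe sets, correlating best with a wild-type array. The flagged share over all probe sets is not given here, so the count is not read as a feature of the SR genes. Those of Srsf3 read the same gene, and 1434512_x_at and 1454993_a_at share a transcript record. In each of the 4 the outlying array was KO replicate 2. The share was 0.94 for Srsf3 1416150_a_at, 0.91 for Srsf3 1434512_x_at and 0.941 for Srsf3 1454993_a_at. On these the array lay between the other KO arrays and wild type. It was 0.83 for Srsf11 1430077_at, where the array lay above all others.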

How the results depend on the processing

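The number of called probe sets moved with the processing, while the differences of the SR probe sets moved little. Of 525 recomputed SR differences, 524 moved by less than 1 SD between replicates, 1 moved by more (Srsf3 1416151_at, -0.84 with an offset of 100), and 0 called differences changed sign. With scaling to the common array median 236 probe sets were called in all and 3 among the SR probe sets. Without a filter on low signal there were 100 in all, 1 SR and 0 among the other splicing genes (84 at an unadjusted p under 0.05 by limma). Without the mean-variance trend there were 6 in all, 0 SR and 0 other splicing (11 and 66 at an unadjusted p under 0.05 by limma). Within the second deposit block 726 were called in all and 8 among the other splicing genes, and with the block as a covariate 7 among the other splicing genes. Leaving out 1 array gave 7 to 1986 in all, 0 to 8 SR and 0 to 36 other splicing, the highest each time without KO replicate 2. The causes were not tested. With the replicate number as a replicate block 2183 were called in all, 8 SR and 38 other splicing. Wild type has no replicate 2, so that fit takes nothing from KO replicate 2. Same-numbered samples deviated together with correlations of 0.06, 0.15 and 0.11, so the numbers were not taken as pairs.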
